A study of Homo sapiens with 14 samples.

Results

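Alternative 5′ splice site events, in which an intron can begin at either of a pair of donor sites in the same exon, were examined in HEK293T cells carrying SF3B1 K700K (WT) or SF3B1 K700E (MT). The splice table listed 4768 such events, and 3817 of them, in 2469 genes, had a mean of at least 10 junction reads over the WT and MT values and were taken as members. The whole table held 114349 events of all types, 94061 of them at the same read minimum. Of the members, 3 lacked a level in at least 1 library and 234 had the same level in all 6 libraries (221 at 1 and 11 at 0), so that 3580 events in 2376 genes could be compared between genotypes. At the read minimum, 76 events with 9 to 10 reads had a median level of 0.758, and 63 with 10 to 11 reads had a median level of 0.817.

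HEK293T is an established human embryonic kidney line, and the study used an isogenic pair in which K700E was placed at the endogenous SF3B1 locus. RNA-Seq was available for 3 WT and 3 MT libraries of untreated cells. The sources used here do not say how many clones the MT line stands for, nor that the libraries came from separate cultures, so that p-values measure the spread between these libraries. The table lists 6 MT values per event but gives columns for 3, and those 3 columns carry no replicate number that ties them to a sample, so MT 1, MT 2 and MT 3 name columns only. The comparison asks whether the choice between donor sites differs between the genotypes.

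A donor site, or 5′ splice site, marks the start of an intron and is first recognised by base pairing with U1 snRNA, whose binding favours an exon end of CAG followed by GTAAGT or GTGAGT. U6 snRNA later replaces U1 at the donor. SF3B1 belongs to U2 snRNP and acts at the other end of the intron, at the branch point, and its cancer mutations are known above all for cryptic 3′ splice sites, which makes donor choice a class of events outside its best-known effect.

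The inclusion level of an event is the estimated fraction of transcripts, from junction reads divided by the length of each form, that keep the longer exon, which means that the downstream donor was used. A level of 0 means the upstream donor alone and a level of 1 the downstream donor alone. In all 3580 events the forms were defined as 1 exon with a common start that can end at either donor. The reference annotation held both donors, each in some transcript, for 3511 of them. That does not mean that 1 annotated exon spans both.

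The only event that passed the test was in UBQLN1 (ubiquilin-1, a carrier of ubiquitinated proteins to the proteasome), at chr9:83666350-83669184 on the minus strand of GRCh38. Its donors are shown because they carry that result. Each sequence runs 5′ to 3′ from 3 exon bases to 6 intron bases, and capitals mark the first bases of the intron.
UBQLN1 upstream donor: cagGTgagt
UBQLN1 downstream donor: caaGTgagt

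Some of the donors that lie within 15 nt of each other, in events described below, are shown as windows, from 3 exon bases before the upstream donor to 6 intron bases after the downstream one, with the first bases of both introns in capitals. At 4 to 6 nt, in SF1, ZNF33A, TIA1 and SRRM1, the 9 bases of the 2 donors overlap, and at 9 to 15 nt, in PTBP3, PQBP1, TRA2A and EIF4B, they do not.
SF1: tggGTaaGTaagt
ZNF33A: tggGTaagGTctgt
TIA1: gatGTaaggGTattt
SRRM1: cagGTaaagGTaaaa
PTBP3: cagGTgtgtatgGTgagt
PQBP1: ttgGTaacgttgggGTgggt
TRA2A: tagGTtaagtaaatGTatgg
EIF4B: gaaGTaagtcagaccaggGTgggt

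Donors further apart are given as separate sites for 4 of the events described below. RNF220 and TMEM208 pair a donor close to the U1 consensus with a poorer one, PLAGL1 has a GC donor upstream, and in HNRNPH1 both donors have the same bases.
RNF220 upstream donor: cagGTatgt
RNF220 downstream donor: aagGTagag
TMEM208 upstream donor: agaGTgagt
TMEM208 downstream donor: cagGTgagc
PLAGL1 upstream donor: cagGCaagt
PLAGL1 downstream donor: cctGTaggt
HNRNPH1 upstream donor: tgtGTaaat
HNRNPH1 downstream donor: tgtGTaaat

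Few alternative 5′ splice site events were called as different between the genotypes, and by limma their share was close to that over all events. An event was called when limma, on arcsine-transformed levels, gave a Benjamini-Hochberg adjusted p below 0.05 over all 83581 tested events and the mean levels differed by more than 0.1. By that rule 1 of 3580 events was called (0.0279%), against 26 of all events (0.0311%). The call was higher in MT, where 0.0132% of all events were called. None was called lower in MT, where the share over all events was 0.0179%. Without adjustment, limma gave p below 0.05 for 62 events higher and 121 lower in MT, together 5.11% of the events against 4.47% of all events. A quasi-binomial test on junction counts called 1 event higher and 0 lower of the 3394 it could fit. Over all event types that test called 31 higher and 26 lower of 79308.

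Levels in WT and MT lay close to each other. The median difference, MT minus WT, was −0.00133 over the 3580 events and −0.002 over all tested events, and 90% of differences fell between −0.0933 and 0.0820. Differences above 0.1 in size were found in 280 events (7.82%), against 5.80% of all events. Depth went with their size, since only 8 of 1257 events with at least 100 reads had such a difference and the median size was 0.006 there, against 0.017 over all 3580 events.

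Libraries of 1 genotype differed by about as much as libraries of different genotypes. The mean size of the difference between a pair of libraries was 0.0532 to 0.0555 within WT, 0.0566 to 0.0597 within MT and 0.0517 to 0.0591 between WT and MT. Between genotypes the pairs of columns with the same number differed by 0.0523, 0.0517 and 0.0563, and the other pairs by 0.0556 to 0.0591. The median level of a library lay between 0.818 and 0.849, and no library stood apart from the others by this measure. Junction reads over alternative 5′ splice site events with recovered counts numbered 314920 to 446098 per library, with a median of 48 to 72 per event. A level of exactly 1 was found in 23.7% to 27.0% of events in the WT libraries, in 26.8% in MT 1, and in 21.6% and 21.8% in MT 2 and MT 3.

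**Figure D1:**
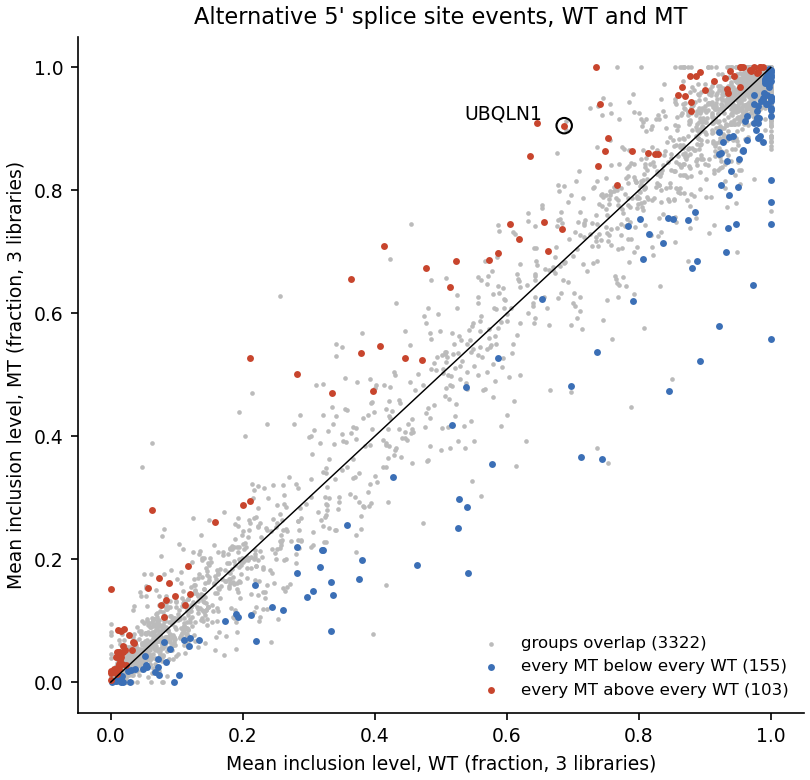
Mean inclusion level in WT (x axis, fraction) and in MT (y axis, fraction) for the 3580 tested alternative 5′ splice site events, 1 point per event, with the line of equal levels. Blue points are the 155 events with every MT library below every WT library, red points the 103 with every MT library above, and the circle marks UBQLN1 at 0.687 and 0.905.

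With all 6 libraries, events whose groups did not overlap were more numerous downward than upward, but not without WT 3, when 264 were higher and 220 lower. In 155 events (4.33%) every MT level was below every WT level, against 3.15% of all tested events, and in 103 events (2.88%) every MT level was above, against 2.32%. These events lay in 139 and 98 genes, with 6 genes in both groups. Differences passed 0.1 in 50 of the 155 and in 29 of the 103. Alternative 3′ splice site events, their counterpart at the other end of the intron, showed 4.77% higher and 4.52% lower, and 12 of 5351 were called. Retained introns showed 2.59% higher and 4.50% lower. These shares were compared as a description, with no test between event types, and 1056 of the 3580 events share a donor with another tested event.

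**Figure D2:**
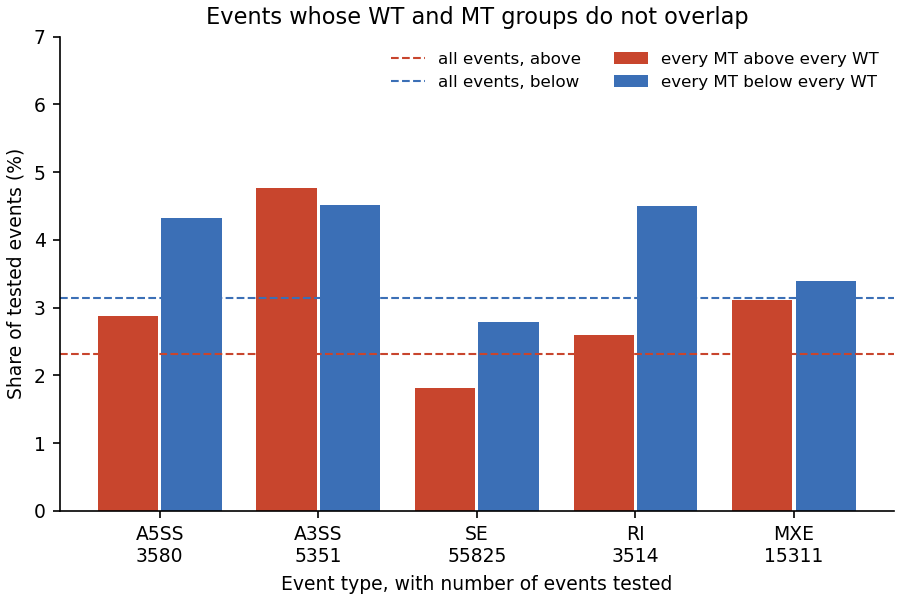
Share of tested events (y axis, %) in which every MT library was above (red bars) or below (blue bars) every WT library, by event type: alternative 5′ splice sites (A5SS), alternative 3′ splice sites (A3SS), cassette exons (SE), retained introns (RI) and mutually exclusive exons (MXE). Dashed lines give the shares over all 83581 events, 2.32% above and 3.15% below; the bars for alternative 5′ splice sites reach 2.88% and 4.33%.

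In UBQLN1 the downstream donor was used more in MT. Levels were 0.672, 0.694 and 0.695 in the WT libraries and 0.932, 0.95 and 0.834 in the MT libraries. The groups did not overlap, and MT 3 was the lowest of the MT libraries. WT averaged 0.687 ± 0.013 (SD, n = 3) and MT 0.905 ± 0.0624 (SD, n = 3), a difference of 0.218 with an adjusted p of 0.0134 by limma and 0.0131 by the count test. Reads of the upstream junction numbered 33, 39 and 37 in WT against 8, 6 and 27 in MT. Reads counted for the longer form numbered 135, 177 and 169 in WT against 221, 226 and 271 in MT.

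The call in UBQLN1 depended on the libraries and on the variance model. Leaving out 1 library at a time gave differences of 0.196 to 0.254 and adjusted p-values of 0.0211 to 0.88 by limma, and the event was called only without MT 3, being lost without WT 1, WT 2, WT 3, MT 1 or MT 2. It was also lost with a logit transform (adjusted p 0.438), with no variance trend (0.447) and among events with mean levels of 0.05 to 0.95 alone (0.210).

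The segment between the UBQLN1 donors is 2835 nt long, a multiple of 3, and its last 84 nt are an annotated exon of their own. A cassette-exon event of that exon, at chr9:83666350-83666433, counts the same junctions. Its levels were 0.838, 0.855 and 0.849 in WT against 0.963, 0.978 and 0.923 in MT, with an adjusted p of 0.0352 by limma, so it was called as well. A shorter version of the exon, 45 nt with the same donor, had levels of 0.571, 0.569 and 0.617 in WT against 0.9, 0.923 and 0.736 in MT and an adjusted p of 0.0726 by limma. The retained-intron event over the intron before that exon had levels of 0.063, 0.020 and 0.037 in WT against 0.043, 0.023 and 0.030 in MT. The downstream junction counted in UBQLN1 is thus also that of the 84-nt exon. The intron before that exon was kept in few transcripts of either genotype. The level of the event is therefore not the share of transcripts that hold the whole 2835-nt segment.

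This kind of double listing was common. In 863 of the 3580 events (24.1%) an annotated exon begins inside the segment between the donors and ends at the downstream donor, and for 587 events (16.4%) a tested cassette exon used both of the event's junctions. The difference had the same sign in 652 of the 693 pairs so formed. Without the 587 events, 94 of 2993 events (3.14%) were higher and 130 (4.34%) lower with no overlap. In the 863 events with such an exon 13 were higher (1.51%) and 37 lower (4.29%). In the other 2717 events 90 were higher (3.31%) and 118 lower (4.34%). Over all tested events the shares were 2.32% higher and 3.15% lower. Among the events described below, such an exon is found in SNHG8, IP6K2, RWDD2B, AP1G2, EIF4G2 and LRRC75A-AS1. The same holds for SF3A2, CLK3, HNRNPH1, HNRNPU, DDX5, DDX41, TOP3B and PARP1.

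Among events with at least 50 reads and no overlap, the 10 with the greatest rise were, after UBQLN1, in CNOT8, RPL41, SNHG8, TRAPPC6A, IP6K2, TMEM208, FIGNL1, ARL6IP4 and ZNF33A. Apart from UBQLN1 their differences were 0.0733 to 0.136 and none passed the test, with adjusted p-values of 0.633 to 0.856 by limma. Their levels are therefore given as measured values, and the choice of events by size and lack of overlap sets their direction.

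CNOT8 encodes a deadenylase of the CCR4-NOT complex, and its event lies in the 5′ UTR at chr5:154858769-154858816 with donors 48 nt apart. The levels were 0.376, 0.374 and 0.255 in WT against 0.436, 0.516 and 0.461 in MT. In SNHG8, a noncoding host of a small nucleolar RNA, the event at chr4:118278793-118279137 had levels of 0.596, 0.439 and 0.508 in WT against 0.650, 0.668 and 0.612 in MT. It had the most reads of the 10, with a mean of 357. A cassette exon of 194 nt in SNHG8 uses the same junctions and had levels of 0.438, 0.404 and 0.411 in WT against 0.468, 0.628 and 0.582 in MT.

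RPL41, a protein of the large ribosomal subunit with near-identical copies elsewhere in the genome that could share its reads, had levels of 0.646, 0.808 and 0.805 in WT against 0.829, 0.935 and 0.894 in MT. TRAPPC6A, part of a vesicle-tethering complex, had levels of 0.641, 0.520 and 0.601 in WT against 0.683, 0.705 and 0.708 in MT. In both genes WT spread more widely than MT. TMEM208, a protein of the endoplasmic reticulum, used the downstream donor cagGTgagc, closer to the U1 consensus, in few transcripts of either genotype, with levels of 0.029, 0.110 and 0.082 in WT against 0.183, 0.157 and 0.166 in MT.

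IP6K2, an inositol hexakisphosphate kinase, reached a level of 1 in MT 1 and MT 2 and 0.979 in MT 3, against 0.778, 0.929 and 0.971 in WT. ARL6IP4, a protein of nuclear speckles, had levels of 0.439, 0.403 and 0.497 in WT against 0.521, 0.507 and 0.556 in MT. The gap between its groups was narrow, as it was in FIGNL1, an ATPase of homologous recombination, with 0.885, 0.867 and 0.828 in WT against 0.976, 0.889 and 1 in MT. FIGNL1 had 9 tested events with differences from −0.144 to 0.20, so the gene as a whole had no single direction. ZNF33A, a zinc finger gene with donors 5 nt apart, had levels of 0.092, 0.057 and 0.114 in WT against 0.189, 0.177 and 0.117 in MT.

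The 10 greatest falls by the same rule were in RWDD2B, PLAGL1, CEP170, ASCC2, AP1G2, STRADA, PQBP1, RNF220, CPT2 and ZMYM3, with differences of −0.172 to −0.099. None passed the test, with adjusted p-values of 0.855 to 0.856 by limma. In RWDD2B, at chr21:29008240-29008394, levels were 0.843, 0.727 and 0.806 in WT against 0.582, 0.636 and 0.643 in MT. Its 155-nt segment ends in a 68-nt exon, whose cassette event had levels of 0.905, 0.841 and 0.874 in WT against 0.698, 0.728 and 0.743 in MT.

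RNF220, an E3 ubiquitin ligase, was the fall with the most reads, a mean of 276. At chr1:44635589-44635666 the donors lie 78 nt apart and the upstream one, cagGTatgt, is the closer to the consensus. The downstream donor was used at levels of 0.397, 0.367 and 0.309 in WT against 0.261, 0.240 and 0.267 in MT, with means of 0.358 ± 0.0447 (SD, n = 3) and 0.256 ± 0.0142 (SD, n = 3). The count test gave an adjusted p of 0.255. MT varied less than WT, and no MT library reached the lowest WT level.

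PLAGL1, an imprinted zinc finger transcription factor, had levels of 0.210, 0.274 and 0.437 in WT against 0.163, 0.086 and 0.195 in MT. The width of WT was of the size of the difference there, as in CEP170, a centrosomal protein, with 0.284, 0.25 and 0.418 in WT against 0.169, 0.166 and 0.225 in MT. ASCC2, a ubiquitin-binding protein of the alkylation damage response, had levels of 0.231, 0.233 and 0.271 in WT against 0.109, 0.087 and 0.173 in MT. Its WT libraries were close together.

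PQBP1, a polyglutamine-binding protein that takes part in splicing, has its pair of donors in the 5′ UTR, shown above, and had levels of 0.148, 0.195 and 0.294 in WT against 0.108, 0.085 and 0.133 in MT. ZMYM3, a chromatin-bound zinc finger protein, had levels of 0.855, 0.825 and 0.877 in WT against 0.771, 0.727 and 0.762 in MT. CPT2, the inner carnitine palmitoyltransferase of mitochondria, had 0.918, 0.937 and 1 in WT against 0.852, 0.881 and 0.819 in MT. Of PQBP1, ZMYM3 and CPT2, the gap between the groups was narrowest in PQBP1, from 0.133 in MT to 0.148 in WT.

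AP1G2, a subunit of the AP-1 adaptor of clathrin coats, had levels of 0.831, 0.877 and 0.947 in WT against 0.755, 0.711 and 0.828 in MT. A cassette exon of 77 nt in AP1G2 uses the same junctions, with 0.841, 0.873 and 0.943 in WT against 0.772, 0.762 and 0.814 in MT. STRADA, the pseudokinase partner of LKB1, had 0.906, 0.940 and 0.929 in WT against 0.661, 0.860 and 0.905 in MT, so that its fall came mainly from MT 1. The groups nearly touched in both genes, at 0.828 in MT and 0.831 in WT for AP1G2 and at 0.905 and 0.906 for STRADA. Among the 5 tested STRADA events the differences ran from −0.116 to 0.222.

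**Figure D3:**
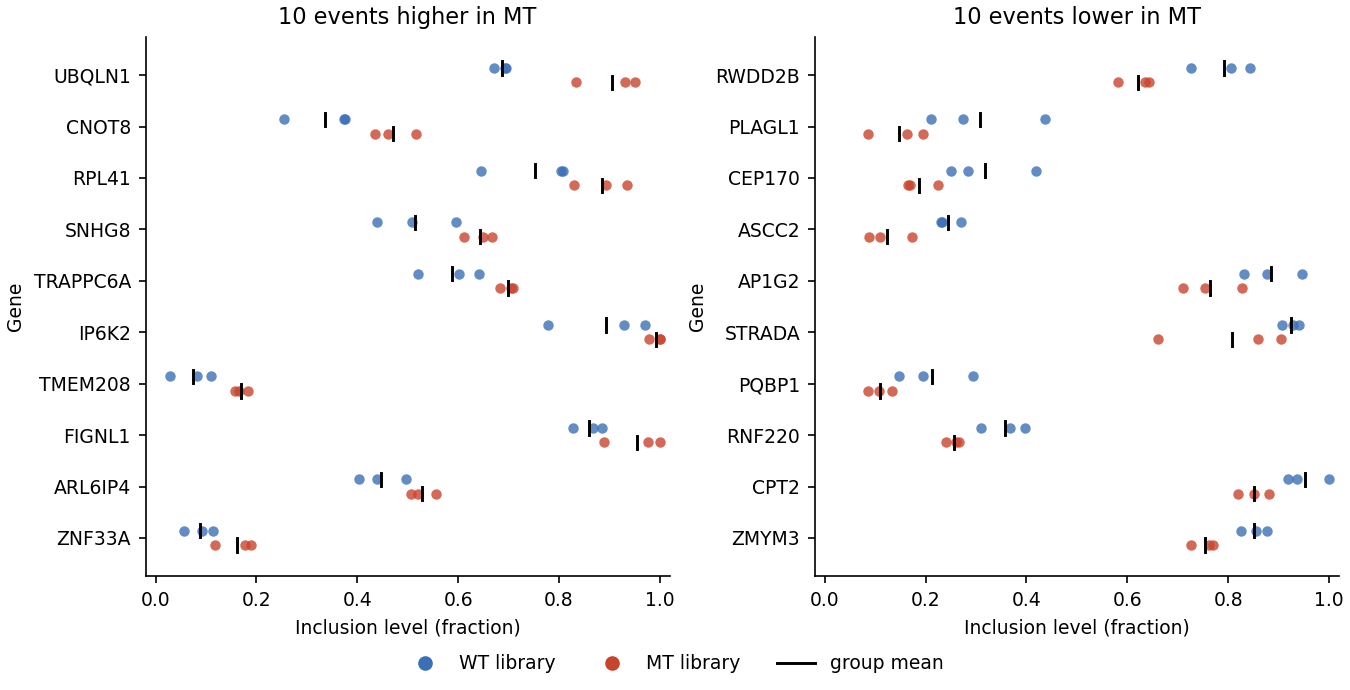
Inclusion level (x axis, fraction) of the 10 events with the greatest rise (left) and the 10 with the greatest fall (right) among events with at least 50 reads and groups that do not overlap, 1 row per gene. Blue points are the 3 WT libraries, red points the 3 MT libraries and black bars the group means; UBQLN1 has the widest gap, from 0.695 in WT to 0.834 in MT.

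Some further events were picked out after their values were seen. In TMEM218, a membrane protein of cilia, the event lies at chr11:125102637-125102733. It had levels of 1, 0.920 and 1 in WT against 0.686, 0.606 and 0.644 in MT. The adjusted p was 0.0514 by limma and 0.175 by the count test. Its mean of 34.5 reads kept it out of the group above, and other TMEM218 events with donors also 97 nt apart moved the other way or hardly at all, with differences of 0.139, 0.0313 and −0.0143. EIF4G2, a translation factor related to eIF4G, had levels of 0.863, 0.819 and 0.850 in WT against 0.741, 0.758 and 0.768 in MT at a mean of 945 reads, and an adjusted p of 0.25. Its difference of −0.0883 was under the 0.1 required of a call.

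In some events reads of the upstream junction were found in a single genotype, at the depth of these libraries. All WT libraries had a level of 1 in 401 events, in 16 of which (3.99%) all MT libraries were lower, against 2.78% of the events of all types with WT at 1 and 3.15% of all tested events. All MT libraries had a level of 1 in 291, in 8 of which (2.75%) all WT libraries were lower, against 1.94% of the events of all types with MT at 1 and 2.32% of all tested events. In 214 of the 401 and 122 of the 291 an annotated exon begins inside the segment between the donors and ends at the downstream donor. In such events, CENPT, POLL and GORASP1 among them, the upstream junction is also the one that skips that exon. CENPT, a protein of the inner kinetochore and also picked out after its values were seen, was one of the 16, with 0.962, 0.930 and 0.952 in MT at a mean of 100 reads. POLL, a DNA repair polymerase picked out likewise, was another, with 0.906, 0.973 and 0.922 in MT. GORASP1, a Golgi stacking protein, had 0.667, 0.579 and 0.429 in MT but a mean of only 12.1 reads. Their adjusted p-values were 0.424, 0.427 and 0.162 by limma, and 0.662, 0.662 and 0.320 by the count test.

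Donor pairs 4 nt apart were the most frequent at any single distance, with 133 events (3.72%), followed by 9 nt with 66 and 12 nt with 57. Distances ran from 1 to 192137 nt with a median of 79. Both donors began with GT in 89 of the 133 pairs, and in 41 the upstream donor began with GC, against 2.13% of the 310243 annotated donors. The upstream donor was mostly the main one at this distance, with a median level of 0.0837, where the median was 0.846 at 1 to 3 nt and 0.514 at 5 to 9 nt. It rose from 0.438 at 10 to 30 nt to 0.823 at 31 to 100 nt and 0.933 beyond 100 nt. Beyond 100 nt, 798 of the 1536 events have an annotated exon that begins inside the segment and ends at the downstream donor. Their median level was 0.979, against 0.589 in the other 738.

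Median differences between the genotypes were small in every distance class. They lay, as MT minus WT, between −0.003, beyond 100 nt, and 0.001, at 10 to 30 nt. Groups without overlap were 1 higher and 2 lower of 45 events at 1 to 3 nt, 1 and 4 of 133 at 4 nt, 8 and 7 of 211 at 5 to 9 nt, and 24 and 24 of 577 at 10 to 30 nt. At 31 to 100 nt they were 34 and 50 of 1078, and beyond 100 nt 35 and 68 of 1536. The numbers were thus even from 5 to 30 nt, and falls were more numerous than rises beyond 30 nt, where the shares were 3.15% higher and 4.64% lower at 31 to 100 nt and 2.28% and 4.43% beyond 100 nt. The 2.32% and 3.15% of all events are the background to these shares. Beyond 100 nt, 13 were higher and 36 lower of the 798 with an annotated exon that begins inside the segment. In the other 738, 22 were higher and 32 lower. Longer distances also had levels nearer 1. Among events with mean levels of 0.05 to 0.95 the counts were 19 higher and 35 lower of 511 at 31 to 100 nt, and 18 higher and 37 lower of 674 beyond 100 nt.

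**Figure D4:**
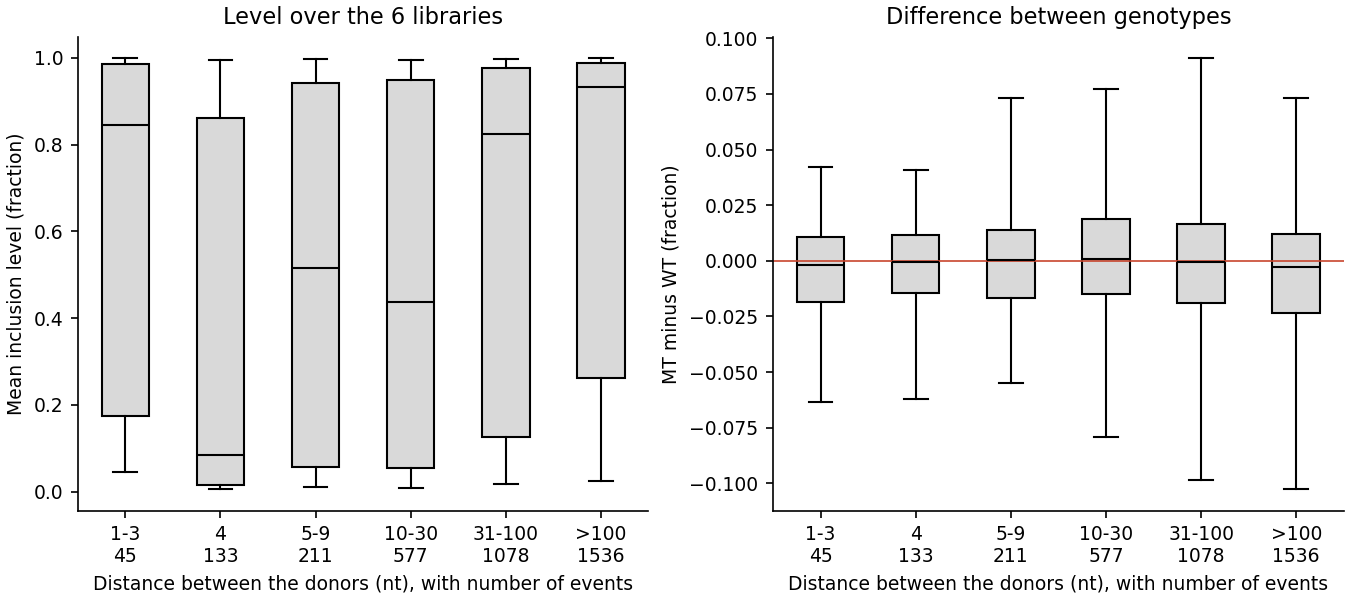
Mean inclusion level over the 6 libraries (left, fraction) and difference between MT and WT (right, fraction) by distance between the donors (x axis, nt, with the number of events under each class). Boxes give the quartiles with the median and whiskers reach the 5th and 95th percentiles; the median level is 0.0837 at 4 nt and 0.933 beyond 100 nt, while median differences stay between −0.003 and 0.001.

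Events were also divided by reading frame, as taken from the distance between the donors. The distance was a multiple of 3 in 1446 events (40.4%), of which 42 were higher (2.91%) and 69 lower (4.77%) with no overlap. In the other 2134 events 61 were higher (2.86%) and 86 lower (4.03%), against 2.32% and 3.15% of all events. Median differences were −0.000667 and −0.00167. In 308 of the 1446 and 555 of the other 2134, an annotated exon begins inside the segment and ends at the downstream donor. There the distance need not be the length that is added, so it need not give the frame. Within coding sequence the same split gave 34 higher and 64 lower of 1259 events, and 43 higher and 66 lower of 1716. Of all 3580 events 2975 lay in coding sequence, 464 in 5′ UTRs, 103 in noncoding genes and 37 in 3′ UTRs. In 5′ UTRs 16.2% of differences exceeded 0.1, against 5.98% in coding sequence, and the median depth was 36.0 reads against 71.4; the part of depth in that contrast was not tested.

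Donor sequence went with the level more closely than with the difference between genotypes. Each donor was scored in bits against the base frequencies of the annotated donors, whose median score was 7.90. Over the 3580 events the score of the downstream donor minus that of the upstream donor had a Spearman correlation of 0.303 and a Pearson correlation of 0.302 with the level, and of 0.0637 and 0.0856 with MT minus WT. These describe events that share libraries, genes and at times donors. The median level was 0.126 in the 141 events whose downstream donor was weaker by over 6 bits and 0.976 in the 131 whose downstream donor was stronger by over 6 bits. Without overlap, 1 event was higher and 11 lower in MT of the 141, and 5 and 1 of the 131. In the classes between, from weaker to stronger, 17 were higher and 31 lower of 433, 26 and 30 of 652, 23 and 34 of 969, 18 and 25 of 762, and 13 and 23 of 492. The shares over all events were 2.32% higher and 3.15% lower.

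**Figure D5:**
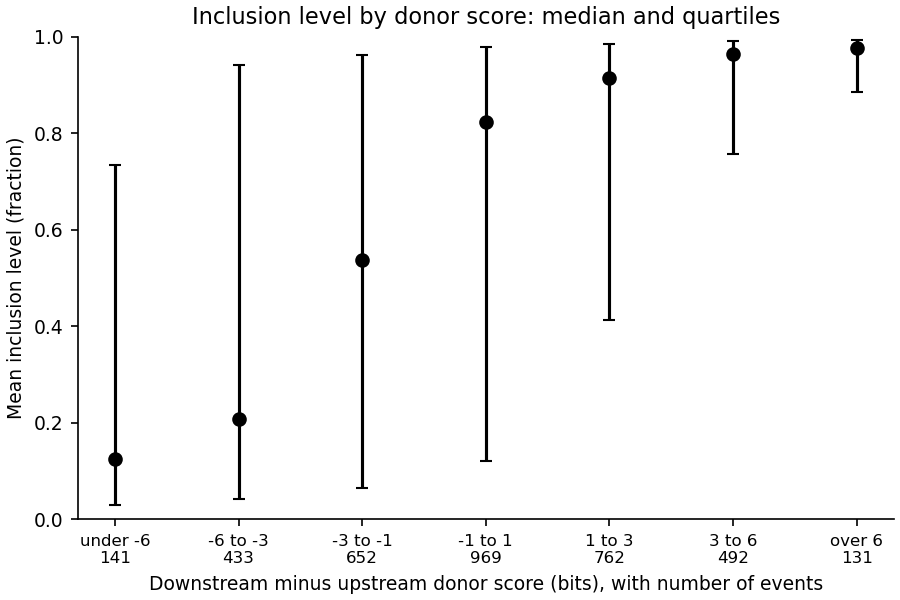
Inclusion level over the 6 libraries (y axis, fraction) by the score of the downstream donor minus that of the upstream donor (x axis, bits, with the number of events under each class). Points are medians and bars the quartiles; the median rises from 0.126 to 0.976.

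In UBQLN1 the upstream donor scored 11.8 bits and the downstream donor 8.79, and the downstream donor was the main one in both genotypes. That donor also ends the 84-nt exon described above, so the level is not a choice between donors of 1 exon alone. RNF220 and PLAGL1 had the stronger donor upstream and low levels. In 15 events the longer form runs into the next exon as the event itself defines it, and its end is no annotated donor. These had 0 higher and 2 lower with no overlap, against 2.32% and 3.15% of all events. The end of the longer form had a median score of −10.3 bits. All 15 were thus counted among the events whose downstream donor was weaker by over 3 bits.

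The events with the most reads and with levels between 0.1 and 0.9 were in LRRC75A-AS1, HNRNPC, EIF4B, GAS5 and HMGA1, with means of 1040 to 2708 reads, and none passed the test. HNRNPC, whose protein forms C1 and C2 differ by a short insert, makes that choice at donors 39 nt apart. Its levels were 0.218, 0.217 and 0.272 in WT against 0.260, 0.220 and 0.270 in MT. HMGA1, an architectural chromatin protein with an a and a b form, makes its choice at donors 33 nt apart, and the longer form was at 0.675, 0.661 and 0.653 in WT against 0.698, 0.715 and 0.691 in MT. HMGA1 alone of these 5 showed no overlap, with a difference of 0.0383 and an adjusted p of 0.856 by limma.

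EIF4B, a cofactor of the eIF4A helicase, gave the tightest values, with 0.116, 0.128 and 0.122 in WT against 0.120, 0.117 and 0.110 in MT. GAS5, a noncoding host of small nucleolar RNAs, had 0.532, 0.479 and 0.545 in WT against 0.518, 0.469 and 0.616 in MT. LRRC75A-AS1 had 0.147, 0.143 and 0.194 in WT against 0.129, 0.117 and 0.188 in MT. It is antisense to a coding gene, and the sources used here do not say whether reads were counted by strand. In these 3 genes the groups overlapped. Processed copies of HNRNPC, HMGA1 and EIF4B elsewhere in the genome could share reads with them.

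Genes that recognise splice sites had tested events of their own. Of 18 genes of U1 snRNP and donor recognition, 6 had 9 tested events, with 0 called and none without overlap. Their median difference was −0.000333, against −0.002 over all events. Over all events 2.32% were higher and 3.15% lower without overlap, shares that leave few such events in lists of this size. TIA1, which helps U1 bind weak donors, used its downstream donor little, at 0.008, 0.018 and 0.044 in WT against 0.011, 0.026 and 0 in MT. PRPF39, a U1-associated protein, was at 1, 1 and 0.987 in WT and at 1 in all MT libraries. NCBP2, of the cap-binding complex, spread from 0.697 to 0.917 in WT and from 0.581 to 0.839 in MT.

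Of 21 genes of U2 snRNP and 3′ splice site recognition, 5 had 1 tested event each, with a median difference of −0.00733 and none without overlap. Without overlap, 2.32% of all events were higher and 3.15% lower. SF1, the branch-point binding protein, had 0.083, 0.089 and 0.051 in WT against 0.037, 0.061 and 0.039 in MT at its donors 4 nt apart. SUGP1, a partner of SF3B1, was between 0.016 and 0.044 in WT and between 0.008 and 0.042 in MT. SF3A2, a U2 snRNP subunit, was at 0.993 or above in all 6 libraries.

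Among 22 SR proteins and SR-like regulators, 8 genes had 12 tested events, with differences from −0.113 to 0.066 and none without overlap. The shares without overlap over all events were 2.32% higher and 3.15% lower. SRRM1 had 0.873, 0.834 and 0.819 in WT against 0.867, 0.778 and 0.766 in MT. CLK3, a kinase of SR proteins, had 0.969, 0.922 and 0.877 in WT against 0.833, 0.916 and 0.890 in MT. TRA2A had the largest difference of the list, at a mean of 18.2 reads, with 0.942, 0.863 and 0.90 in WT against 0.871, 0.863 and 0.632 in MT.

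Of 28 hnRNP genes, 9 had 18 tested events with a median difference of 0. None was without overlap, against 2.32% higher and 3.15% lower of all events. PTBP3, a paralogue of the polypyrimidine tract-binding protein, had 0.443, 0.539 and 0.505 in WT against 0.519, 0.586 and 0.693 in MT. HNRNPH1, whose pair of donors is identical in sequence, had 0.819, 0.780 and 0.834 in WT against 0.896, 0.827 and 0.833 in MT at a mean of 973 reads. HNRNPU was at 1 in all WT libraries and at 1, 0.965 and 0.909 in MT, at a mean of 48.5 reads. A cassette exon of 100 nt that uses the same junctions, with a mean of 1941 reads, was at 1 in all WT libraries and at 0.997 or above in all MT libraries. In each of these 3 genes at least 1 MT library lay within the WT range.

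Of 33 genes of R-loop prevention and resolution, 10 had 16 tested events, with 0 called, 1 lower without overlap (3.15% of all events were) and a median difference of −0.00333. The 1 was in DDX5, an RNA helicase, with 0.991 in each WT library and 0.968, 0.967 and 0.989 in MT at a mean of 1704 reads. A cassette exon of 225 nt in DDX5 uses the same junctions. It had levels of 0.994, 0.992 and 0.993 in WT against 0.978, 0.971 and 0.991 in MT. DDX41, another helicase, was at 1 in WT and at 1, 0.983 and 0.986 in MT. TOP3B, a topoisomerase that acts on RNA and DNA, had 0.658, 0.674 and 0.442 in WT against 0.658, 0.227 and 0.364 in MT.

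Of 35 DNA damage response genes, 13 had 22 tested events, 1 of them lower without overlap, against 3.15% of all events, and a median difference of −0.00733. The 1 was in POLQ, the polymerase of end joining by short homologies, with 0.565, 0.333 and 0.724 in WT against 0.30, 0.111 and 0.120 in MT. It is among the 15 events that run into the next exon, and its mean was 14.8 reads, with an adjusted p of 0.856 by limma and 0.227 by the count test. RAD50, of the MRN complex, was at 1, 0.976 and 0.966 in WT and at 1 in all MT libraries. PARP1 was at 0.996 or above in all 6 libraries.

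Of 18 genes of nonsense-mediated decay, 5 had 1 tested event each, with a median difference of −0.003 and 1 lower without overlap, where 3.15% of all events were lower. The 1 was in SMG9, with 0.064, 0.045 and 0.050 in WT against 0.025, 0.015 and 0.043 in MT. SMG1, the kinase of the pathway, was at 1 in WT and at 1, 0.979 and 0.987 in MT.

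Among 4 genes known for alternative donors, BCL2L1 and BRCA1 had tested events, while WT1 and KLF6 had none. In BCL2L1 the downstream donor gives the antiapoptotic long form, Bcl-xL, and the upstream donor the short form, Bcl-xS. Bcl-xL prevailed, with levels of 0.943, 1 and 0.974 in WT against 0.904, 0.959 and 1 in MT. In BRCA1 the upstream donor of the large central exon removes most of that exon, 3309 nt, and the full exon was kept at 0.894, 0.924 and 0.920 in WT against 0.907, 0.882 and 0.851 in MT. Both genes showed overlapping groups, with adjusted p-values of 0.878 and 0.856 by limma.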

How the data were processed

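RNA-Seq libraries were grouped by the genotype of their labels, 3 WT and 3 MT. Per the labels, STAR and StringTie were among the tools used with GRCh38, and Methods name the rMATS model. The deposited inclusion level is a fraction with 3 decimals, which the authors computed from junction reads per length of form. The authors' table also lists raw junction counts, mean reads, form lengths, and their own p-values and level differences, and those last were not used. Listed counts, some run together, were split so that every level recomputed within 0.0011, which succeeded for 4552 of 4768 alternative 5′ splice site events. The 6 listed MT counts held the 3 MT columns at fixed places. The read mean covers all 6 listed MT values.

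Levels were compared with limma 3.58.1 in R 4.3.3 (arcsine of the square root, variance trend on log mean reads) after leaving out events with under 10 mean reads, a missing level or a constant level, with Benjamini-Hochberg adjustment over all 83581 events. Code was tested on simulated data. Junction counts were tested with a quasi-binomial model as an alternative. Donor scores are log-odds in bits against a background of 0.25 per base, from the GENCODE 44 annotation. Named events were all called events, the 10 greatest rises and falls without overlap at 50 reads or more, the 5 best-read events with mean levels of 0.1 to 0.9 (each with 1 event per gene), up to 3 events of lowest p per gene list, and the best-read event of each gene known for alternative donors. The values of 1 event so named are not reported here. The members and lists were chosen with earlier results of these data known.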

Additional observations from a re-analysis of the deposited data

How the results depend on the processing

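The numbers of the WT and MT columns are not tied to shared samples, and the deviations of same-numbered columns from their group means had correlations over the 3580 events of 0.0885, 0.0855 and 0.0636, against −0.0672 to −0.0169 for other pairs. Each column correlated best with its own number. With a replicate block by column number, an alternative chosen after seeing the data, calls higher in MT were 0 and calls lower 0, and UBQLN1 had an adjusted p of 0.159 by limma. The count of calls higher in MT also fell from 1 to 0 with a logit transform, with no variance trend and with mean levels of 0.05 to 0.95 alone, and was 0 to 1 when 1 library at a time was left out, UBQLN1 being called only without MT 3. Calls lower in MT rose from 0 to 2 with robust empirical Bayes (TMEM218 and GORASP1), and to 1 (TMEM218) with a minimum of 20 reads and with limma in the events of the quasi-binomial test. That last alternative, and those without levels of 0 or 1 and without events that run into the next exon, were chosen after seeing the data. Events higher without overlap numbered 62 at mean levels of 0.05 to 0.95 and 65 with no level at 0 or 1, and events lower 94 and 88, of 1660 and 1652 events. With 1 event per gene, 93 of 2376 were lower. Groups of 2 against 3 libraries overlap less often by construction, and leaving out a WT library gave 196 to 264 higher and 220 to 314 lower, and leaving out MT 1, MT 2 or MT 3 gave 230, 218 and 186 higher and 334, 259 and 351 lower. Without WT 3, rises outnumbered falls, with 264 against 220. Shares over all events under these alternatives are not given here, so whether these shifts are particular to alternative 5′ splice sites was not tested. The median difference beyond 100 nt went from −0.003 to −0.000667 without WT 3, to 0 without MT 2 and to −0.0085 at mean levels of 0.05 to 0.95, and that at 31 to 100 nt from −0.000667 to 0.000583 without MT 2.

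Of 783 values of named events under alternatives, 768 kept direction and side of the threshold, 9 (all UBQLN1) lost the call, and 6 changed sign when a library was left out, none of them called. Leaving out a WT library gave differences of −0.00417 to 0.0288 for GAS5, −0.0818 to 0.0282 for NCBP2 and −0.013 to 0.001 for SUGP1. GAS5 was at −0.0252 without MT 3, NCBP2 at 0.0465 without MT 2 and BCL2L1 at 0.00717 without MT 1. Depth, with a median of 48 to 72 reads per event in a library, limits what differences can be seen, as does the number of 3 libraries per genotype.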
